A study of Mus musculus with 7 samples.

Results

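The array carried 16181 probes for long noncoding RNAs that are annotated by a genomic interval and a strand instead of a gene name. The suffix F or R gives the forward or reverse strand, and the coordinates follow the mouse build labelled mm9. Of these probes, 5420 (33.5%) carried a signal that passed the scanner software's flag for well above background on 2 or more arrays out of 7, and these made up the set described here, out of 55681 non-control probes. The label rests on the design of the probes. Whether an interval also holds exons of a coding gene was not tested, and no gene is named from an interval.

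Long noncoding RNAs are transcripts with little or no protein-coding sequence, and many were first mapped as stretches of transcribed chromatin between known genes, so that some remain known only by their interval and strand. As a class they are usually less abundant and more restricted to single tissues than messenger RNAs, although a few nuclear species such as Malat1 and Neat1 are abundant in most cells. Transcripts can arise from both strands of 1 locus, and the strand of a probe decides which of them it reports.

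Epithelial cells of the proximal intestine were released with 2 mM EDTA from males of 8 weeks on the C57BL/6J background, and every mouse had received tamoxifen at 80 mg/kg per day on 2 days. Control mice (2 arrays) carried floxed alleles of both genes, Mob1a f/f and Mob1b f/f, and no Cre, so that CreERT2 activity and the deletion cannot be told apart, and their day is 7 in the labels but 0 in the design text. The knockout mice carried the same alleles with Villin-creERT2, a tamoxifen-inducible Cre under the promoter of an epithelial gene, and were sampled at day 4 (2 arrays), day 7 (2 arrays) and day 10 (1 array). Mob1a and Mob1b are adaptor proteins of the Lats kinases in the Hippo pathway, which restrains growth of this epithelium.

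Levels are log2 of the background-subtracted signal minus the array's 75th percentile, and a difference between group means is on the log2 scale with its standard error. A call is an adjusted p under 0.05 from limma, fitted over 24760 features with Benjamini-Hochberg adjustment. Where a probe was not detected on any array of a group, the fitted difference is not a measured size, and a fold written with at least is the lower bound that the detected signals allow. Per the design text each time point had 2 different mice, and the single day 10 array took its spread from the other groups. Mob1b had differences of -1.43, -1.59 and -1.64 from control at days 4, 7 and 10, with adjusted p of 0.19, 0.014 and 0.0070 (limma). The single Mob1a probe was dim and gave differences of -0.27, 0.25 and 1.60 at days 4, 7 and 10. The first 2 were not called (adjusted p = 0.94 and 0.59, limma). The day 10 difference, 3.04-fold higher, was called and rests on 1 array. Where these probes lie relative to the deleted exons is not given in the sources used here, so they do not check the labels. The 13 tested epithelial markers summed to 2592 to 2778 on the control arrays, in linear units of the array's 75th percentile, to 2016 to 2547 at day 7 and to 1433 at day 10. Arrays of control and day 4 shared 1 row of the slide and those of days 7 and 10 the other row, and the row and a difference across that line cannot be told apart.

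Fewer interval probes than probes with a symbol were detected on an array, and fewest of them at day 7. The share of the 16181 probes that were well above background was 29.2% and 29.3% on the control arrays, 30.7% and 30.1% at day 4, 25.4% and 28.4% at day 7, and 33.6% at day 10. Probes with a gene symbol ran between 59.5% and 64.2%. For interval probes the day 7 arrays were lowest, and for both kinds the day 10 array was highest. The day 7 mean was 26.9% ± 2.10 (SD, n = 2) against 29.3% ± 0.101 (SD, n = 2) in control (exact permutation test, 2-sided, p = 0.33, the smallest that 2 against 2 arrays allow). The dimmest signal still marked as well above background was also brighter at day 7 (levels of -4.13 and -4.13) than on the other arrays (-4.72 to -4.46), and the part of this in the lower detection was not tested. The 75th percentile signal was 545 at day 10 against 315 to 395 elsewhere.

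**Figure D1:**
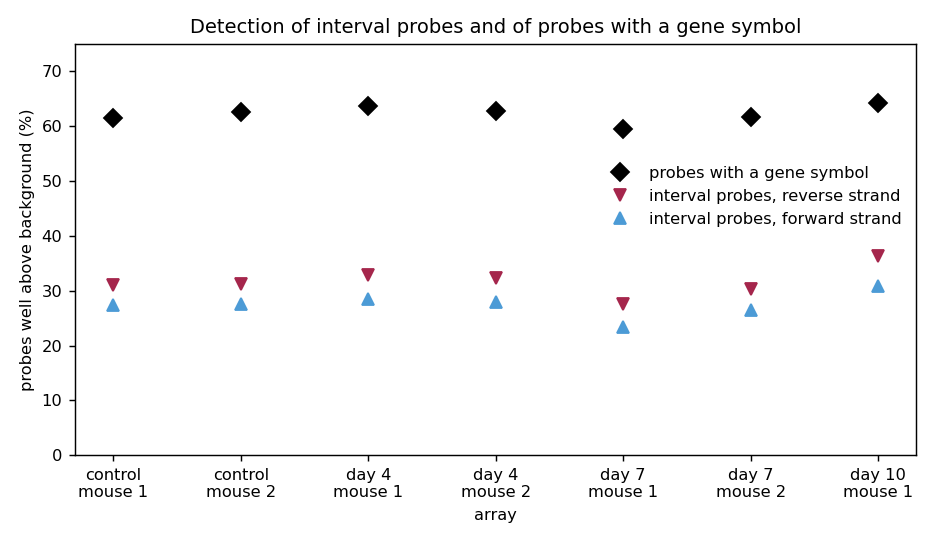
Share of probes marked as well above background (vertical axis, percent) on each of the 7 arrays, for forward and reverse interval probes and for probes with a gene symbol. On every array reverse probes (27.6% to 36.4%) lie above forward probes (23.3% to 30.9%), and both lie below probes with a symbol.

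Most members were present throughout. Of the 5420 members, 3384 (62.4%) were well above background on all 7 arrays, and 9212 of the 16181 probes on none. Just inside the threshold, 506 probes were detected on exactly 2 arrays, with a median level of -4.66, and just outside it 1549 probes were detected on exactly 1 array, with a median level of -5.58. That 1 array was day 10 for 712 of them. Detection on both arrays of a single group and on no other array was rare, with 23 members for control, 38 for day 4 and 15 for day 7.

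Reverse-strand probes were detected more often than forward-strand probes. The counts were 2886 of 8010 reverse probes (36.0%) and 2534 of 8171 forward probes (31.0%). The order was the same on every array, and it held both for intervals with probes on 1 strand (34.6% reverse, 31.9% forward) and for intervals with probes on both (37.0% reverse, 30.4% forward). The arrays share the same probes, so the same order on each of them is not independent evidence. The difference between the strands and its source were not tested.

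The probes came from 3540 intervals with a median of 3 probes each, and 2144 intervals (60.6%) had at least 1 detected probe. Overlapping intervals merged into 2223 loci, of which 1453 had a detected probe. Detected intervals were longer, with a median of 10376 bp against 3091 bp for those without a detected probe. The gap was smaller among intervals probed on the same strands. With probes on both strands the medians were 17718 to 19118 bp, by the strand detected, against 14782 bp without detection. With probes on 1 strand they were 2589 against 1763 bp (forward) and 2437 against 2071 bp (reverse). The 1067 intervals with probes on both strands allow the strands to be compared within an interval. Signal was present on both strands in 466 of them (43.7%), on the forward strand alone in 205 (19.2%), on the reverse strand alone in 227 (21.3%) and on neither in 169 (15.8%). Of the 2473 intervals with probes on 1 strand, 1246 (50.4%) were detected.

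Interval probes were dim compared with probes for named genes. Over the 5410 members that entered the fit (an outlier spot removed 10), the median level was -2.64, against 0.86 for the 13802 features with a gene symbol. The middle 50% of members lay between -3.81 and -0.87. A mean level above 0, the array's 75th percentile, was reached by 926 members (17.1%) and by 59.5% of features with a symbol. The members' median minus that of the symbol features ran from -3.66 to -3.35 over the 7 arrays, and in neither day 4 nor day 7 did all arrays lie on 1 side of control (exact permutation test, 2-sided, p = 0.67, where 0.33 is the smallest possible). Signals of different probes also depend on how well each probe hybridises, so these levels describe the sets and not amounts of RNA. Mice of 1 group differed by a median of 0.29 in control, 0.28 at day 4 and 0.36 at day 7 for members, and by 0.21, 0.26 and 0.34 for features with a symbol.

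Of the 6 brightest members, 3 were lower on the day 10 array, 2 were lower at day 7, and 1 was called at neither time. The 2 called at day 7 come from overlapping intervals. Above a level of 2, 35.3% of members and 30.8% of features with a gene symbol were called at day 10, in either direction. At day 7 these shares were 2.80% and 6.49%. Probe A_30_P01020769, at chr19:5771425-5848475 on the forward strand, lay at 9.56 and 8.90 in control, 8.61 and 8.77 at day 4, 8.70 and 8.82 at day 7, and 6.04 at day 10. The day 10 value was below all the others, with a difference from control of -3.19 ± 0.34 (adjusted p = 0.0016, limma). Probe A_30_P01031754, on the opposite strand within the bounds of that interval (chr19:5801802-5802597, reverse), stayed between 7.88 and 8.63 on all 7 arrays. Probes A_30_P01022075 (chr17:17481706-17482457, reverse) and A_30_P01027687 (chr6:40699474-40719122, forward) lay at 8.42 and 8.11 on average in control and were lower on the day 10 array, by differences of -1.58 ± 0.25 and -1.54 ± 0.34 (adjusted p = 0.0063 and 0.020, limma). The call of A_30_P01027687 ended with quantile normalization and without either control replicate.

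The remaining bright members came from overlapping forward-strand intervals on chromosome 9 and fell at day 7. A_30_P01020518 (chr9:78104935-78116974) lay at 9.82 and 8.61 in control, 7.86 and 8.49 at day 4, 6.77 and 6.52 at day 7, and 8.44 at day 10. A_30_P01028766 (chr9:78107225-78118850) lay at 8.70 and 8.77 in control, 8.31 and 8.64 at day 4, 7.36 and 7.06 at day 7, and 8.51 at day 10. Both day 7 mice were below all other mice at both probes, and the day 10 mouse was back near control. The day 7 differences were -2.58 ± 0.44 (adjusted p = 0.0235) and -1.53 ± 0.24 (adjusted p = 0.018, limma). The first call ended without control replicate 1, without either day 7 or day 4 replicate, with only the 2 groups compared and with no filter on dim probes, and the second ended without either control replicate.

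At day 4 no member passed the test. Against a background of 0.0323% of all features and 0.058% of features with a gene symbol called, all of them higher, 0 of 5410 members were called, with a lowest adjusted p of 0.11 (limma), while 354 members (6.54%) had an unadjusted p under 0.05, near the 6.23% of all features. The median difference of members was -0.13, against -0.08 for all features. With normexp background correction, median scaling, a filter on all 7 arrays or without control replicate 2, 1 member was called. The largest fitted increase that met the other conditions was at chr6:3283191-3284581 on the reverse strand, and another probe of that interval was among the 5 largest. A_30_P01019832 lay at -4.96 and -3.09 in control, -0.92 and -1.30 at day 4, -1.35 and -1.67 at day 7, and -3.24 at day 10. A_30_P01023508, in the same interval, was not detected in control (-5.32 and -4.84) and lay at -2.65 and -2.77 at day 4, -2.99 and -3.78 at day 7, and -4.82 at day 10. Both probes were above both control mice at days 4 and 7 and near control at day 10. Their day 4 differences were 2.91 ± 0.59 (adjusted p = 0.34) and 2.37 ± 0.33 (at least 3.72-fold higher, adjusted p = 0.145, limma), and the second was called at day 7 (1.69 ± 0.33, at least 2.33-fold higher, adjusted p = 0.0355), a call that ended under 10 alternatives.

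Other members were far from control at day 4 without a call. A_30_P01027690 (chr4:13369325-13456750, forward) was well above background on the day 4 arrays alone, at -3.41 and -3.34, against -6.12 and -5.64 in control, -5.52 and -6.24 at day 7, and -6.60 at day 10. It passed the detection filter only through those day 4 arrays. Its fall from day 4 to day 7 was called (-2.50 ± 0.32, at least 1.69-fold lower, adjusted p = 0.021, limma) and was lost with normexp, with no filter on dim probes or without either day 4 replicate. A_30_P01019746 (chr12:111617728-111665403, reverse) lay at -2.70 and -3.48 in control and at -6.55 and -6.08 at day 4, -6.09 and -5.23 at day 7, and -4.65 at day 10, where it was not detected. Its day 7 difference was -2.56 ± 0.41 (adjusted p = 0.019, limma), at least 2.05-fold lower, and its call ended under 7 alternatives. The other 6 members at this end of the ranking, 2 higher and 4 lower, were not called at day 4 either.

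At day 7, 87 members were higher (1.61%) and 154 lower (2.85%) than in control, against 2.96% and 4.5% of all features. In either direction that is 241 members (4.45%) against 7.46% of all features. Features with a gene symbol were called more often, with 3.79% higher and 5.57% lower. The difference between the sets was not tested. The same order was seen in each of 5 ranges of level. Below a level of -4, 7.68% of members and 17.7% of features with a symbol were called, and above 2 these shares were 2.80% and 6.49%. The median difference of members was -0.08, equal to the -0.08 of all features. The calls were split between the strands, with 37 higher and 76 lower on the forward strand and 50 and 78 on the reverse strand. Many calls rest on a signal that was not detected in 1 of the 2 groups compared. Of the 87 higher members 43 were detected on no control array, and of the 154 lower members 82 on no day 7 array. The 43 passed the detection filter only through knockout arrays. Of the 3381 tested members that were detected on all 7 arrays, 39 were higher and 58 lower.

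**Figure D2:**
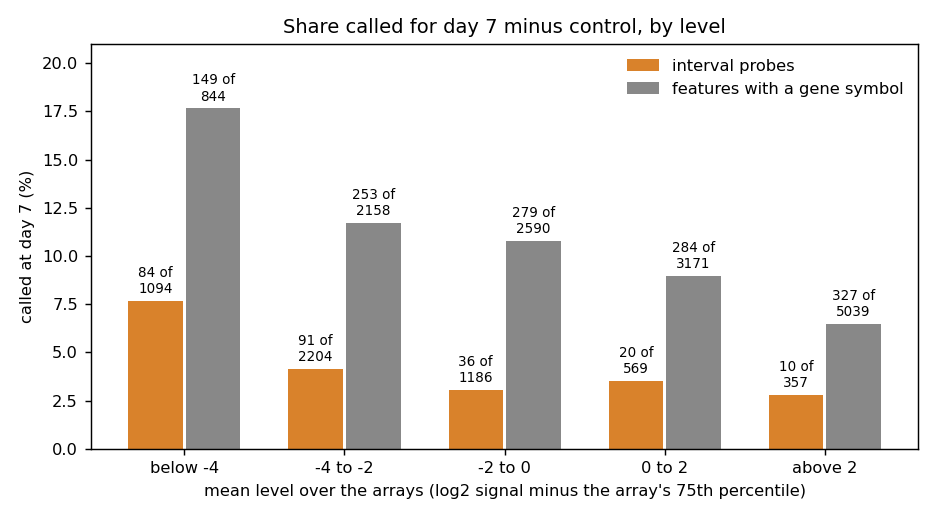
Share of features called for day 7 minus control (vertical axis, percent) by mean level over the arrays, for interval probes and features with a gene symbol, with the counts called and tested above each bar. Interval probes lie below features with a symbol in each of the 5 level ranges, for example 84 of 1094 against 149 of 844 below -4.

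The number of day 7 calls changed when single mice were left out. It was 58 (32 higher and 26 lower) without control replicate 1, 115 without control replicate 2, 117 without day 7 replicate 1, 125 without either day 4 replicate and 300 without day 7 replicate 2. With normexp it was 90. The day 4 mice are outside this comparison but share its estimate of the spread. The loss of an array from the fit and the traits of a mouse cannot be told apart here. T cell markers (5 tested, none called) summed to 41.8 and 41.9 in control and 50.8 to 52.6 at day 7. Myeloid markers (5 tested, 1 called higher) summed to 34.4 to 36.7 in control and 42.6 to 50.9 at day 7. Among the epithelial markers 3 of 13 were lower, and of the 3 tested fibroblast markers 1 was. Erythroid markers (2 tested, none called) summed to 13.0 to 19.5 in control and 0.210 to 4.91 at day 7. Their part in the interval calls was not tested.

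**Figure D3:**
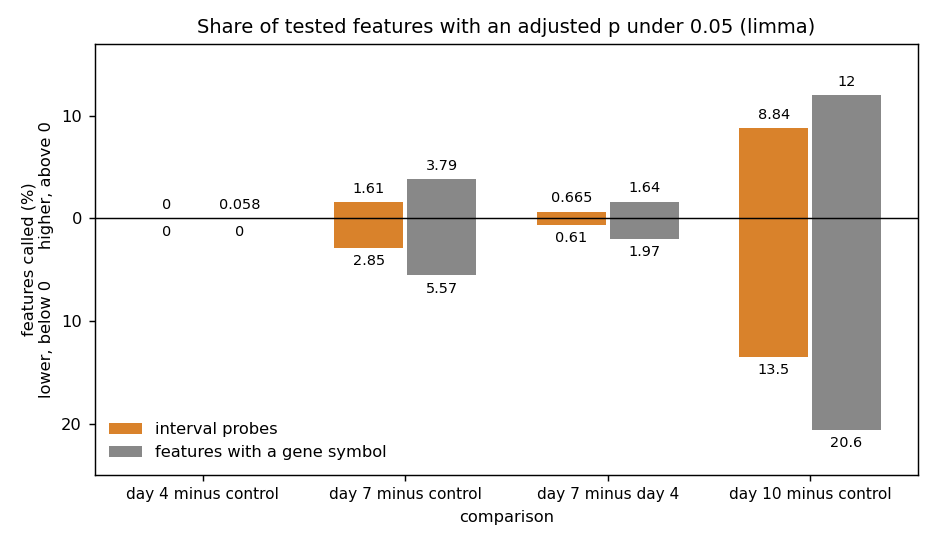
Share of tested features with an adjusted p under 0.05 (limma) in each comparison, higher above the line and lower below it, for interval probes and for features with a gene symbol. Interval probes lie below features with a symbol in both directions at day 7 (1.61% against 3.79% and 2.85% against 5.57%) and at day 10.

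The 8 members with the largest fitted increase at day 7 were not detected in control, so that each fold is a lower bound. A_30_P01026171 (chr1:182438908-182449858, reverse) lay at -2.17 and -1.45 at day 7, and at -6.41 and -6.34 in control, -6.54 and -6.31 at day 4 and -6.42 at day 10. It was detected in the day 7 mice alone, at least 6.95-fold above control (difference 4.57 ± 0.29, adjusted p = 0.0018, limma). A_30_P01019191 (chr1:95871175-95886625, reverse) and A_30_P01022838 (chr1:158979050-159007700, reverse) had the same pattern. The former lay at -2.25 and -3.24 and the latter at -3.29 and -3.12 at day 7, and neither was detected on any other array. They were at least 3.63-fold (adjusted p = 0.0058) and at least 2.64-fold higher (adjusted p = 0.0021, limma). A_30_P01026171, A_30_P01019191 and A_30_P01022838 passed the detection filter only through the day 7 arrays, where they are high. The filter and the ranking by day 7 difference thus favour this pattern.

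Other increases went on to day 10. A_30_P01027858 (chr9:68349343-68411643, forward) lay at -6.60 and -6.50 in control, -5.70 and -6.45 at day 4, -2.39 and -2.13 at day 7, and 0.73 at day 10. Not detected in control or at day 4, it passed the detection filter only through arrays where it is high. The day 7 bound was 5.08-fold (adjusted p = 0.0023) and the day 10 bound 40.4-fold above control (adjusted p = 0.00023, limma), both as lower bounds. A_30_P01023285, in the same interval, was at 0.10 at day 10 and at least 26.2-fold above control (adjusted p = 0.035, limma), but it varied between mice of a group, with -6.13 and -2.22 at day 4 and -4.79 and -2.90 at day 7. That call ended without either control replicate and with no filter on dim probes.

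All 3 probes of the reverse-strand interval chr5:91480533-91502237 rose together. They passed the detection filter only through day 7 and day 10 arrays, where they are high. A_30_P01021044 lay at -6.55 and -6.77 in control, -5.96 and -6.05 at day 4, -1.88 and -3.49 at day 7, and -0.07 at day 10. A_30_P01032133 lay at -6.70 and -6.59 in control, -5.94 and -6.56 at day 4, -2.46 and -3.67 at day 7, and -0.13 at day 10. A_30_P01021382 lay at -6.65 and -6.61 in control, -5.92 and -6.55 at day 4, -3.37 and -4.29 at day 7, and -0.57 at day 10. None was detected in control or at day 4, the third was detected in 1 of the 2 day 7 mice, and the day 10 mouse was above both day 7 mice at each probe. They were at least 3.79-fold, 2.92-fold and 1.71-fold higher at day 7 (adjusted p = 0.010, 0.0090 and 0.012) and at least 23.3-fold, 22.2-fold and 16.4-fold higher at day 10 (adjusted p = 0.00097, 0.00065 and 0.00053, limma). The 3 day 7 calls ended with normexp, and the last 2 also without control replicate 1.

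The interval chr8:19783770-19784669 on the reverse strand, 900 bp long, rose in the same order of days. A_30_P01031255 lay at -6.46 and -6.79 in control, -4.32 and -6.12 at day 4, -3.11 and -2.86 at day 7, and -1.27 at day 10. A_30_P01030607 lay at -5.33 and -5.12 in control, -3.47 and -4.09 at day 4, -2.53 and -2.43 at day 7, and -0.80 at day 10. Their day 7 increases were at least 3.07-fold and at least 4.36-fold (adjusted p = 0.018 and 0.0052, limma), and the third probe, A_30_P01023112, was at least 2.72-fold higher without a call (adjusted p = 0.056). At day 10 all 3 were called, with lower bounds of 8.59-fold to 14.0-fold, under every alternative run. The day 7 calls ended with normexp, and that of A_30_P01031255 also without any 1 control or day 7 replicate. None of the 3 probes was detected in control, so each passed the detection filter only through knockout arrays. A_30_P01023474 (chr15:102100397-102105872, reverse) lay at -6.73 and -6.55 in control, -6.74 and -6.51 at day 4, -2.57 and -2.79 at day 7, and -4.14 at day 10. It was at least 3.80-fold higher at day 7 (adjusted p = 0.0014, limma) and peaked there. Not detected in control or at day 4, this probe passed the detection filter only through later arrays.

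Of the 8 members with the largest fitted decrease at day 7, the only one detected on all arrays was A_30_P01018122 (chr2:77715502-77719430, forward, 3929 bp). It lay at 3.33 and 3.30 in control, 1.69 and 1.70 at day 4, -0.14 and 0.00 at day 7 (the latter -0.00 before rounding), and -0.37 at day 10. The groups did not overlap, and the mice of each group lay within 0.14 of each other. The differences from control were -3.39 ± 0.20 at day 7 (10.5-fold lower, adjusted p = 0.0016) and -3.68 ± 0.25 at day 10 (12.9-fold lower, adjusted p = 0.00039, limma). At day 4 the difference of -1.62 was not called.

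Probes of neighbouring reverse-strand intervals on chromosome 9 fell at day 7, and in the day 10 mouse they lay above control. In chr9:96664617-96683617, A_30_P01032514 lay at -0.75 and -0.88 in control, -1.88 and -2.19 at day 4, -5.54 and -4.48 at day 7, and 0.24 at day 10. A_30_P01020519 lay at -1.49 and -1.86, then -3.02 and -3.60, then -6.36 and -5.16, and -0.75 at day 10. A_30_P01032599 lay at -0.10 and -0.51, then -1.33 and -1.72, then -2.39 and -2.93, and 0.85 at day 10. At each of the 3 probes the day 7 mice were lowest, the day 4 mice lay between them and control, and the day 10 mouse was highest. At day 7 they were at least 9.96-fold (adjusted p = 0.0041), at least 5.48-fold (adjusted p = 0.0066) and 5.12-fold lower (difference -2.36 ± 0.30, adjusted p = 0.010, limma). None was called at day 10, and the last day 7 call ended without control replicate 1.

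In the neighbouring interval chr9:96632664-96653249 both the day 7 decrease and the day 10 increase were called. A_30_P01021238 lay at -1.78 and -1.94 in control, -2.62 and -3.22 at day 4, -4.25 and -4.25 at day 7, and 1.06 at day 10. It was at least 4.82-fold lower at day 7 (adjusted p = 0.0070) and 7.57-fold higher at day 10 (difference 2.92 ± 0.33, adjusted p = 0.0018, limma). A_30_P01030501 and A_30_P01032755 were at least 3.98-fold and at least 3.53-fold lower at day 7 (adjusted p = 0.0047 and 0.011) and 4.31-fold and 4.08-fold higher at day 10 (adjusted p = 0.0028 and 0.017, limma). Of these 6 calls, the day 7 calls of A_30_P01021238 and A_30_P01032755 ended with normexp, that of A_30_P01032755 also without control replicate 1, and its day 10 call without control replicate 2. The forward-strand probes of chr9:96664617-96683617, A_30_P01025081 and A_30_P01030592, ran from -4.17 to -3.09 and from -3.29 to -2.35 over the 7 arrays, and neither was called at day 7.

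Further members fell below detection at day 7. The 3 forward-strand probes of chr17:71183978-71185384 lay between -3.20 and -2.21 in control and between -6.28 and -4.70 at day 7, where none was detected, and at -3.05, -2.71 and -3.32 at day 10. A_30_P01021048, A_30_P01021359 and A_30_P01027810 were at least 2.98-fold, 3.52-fold and 1.98-fold lower at day 7 (adjusted p = 0.0017, 0.019 and 0.0036, limma), and none was called at day 10. The second call ended without either control or either day 4 replicate and in 2 other settings, and the others with normexp. A_30_P01030359 (chr1:78591605-78606083, reverse) was at least 2.90-fold lower (adjusted p = 0.0082), A_30_P01021971 (chr12:88172043-88172731, reverse) at least 2.60-fold (adjusted p = 0.0055) and A_30_P01028878 (chr9:56913341-56913901, reverse) at least 1.96-fold (adjusted p = 0.0026, limma). Of these 3, the last was also lower at day 10, at least 2.59-fold (adjusted p = 0.0059, limma). In the same intervals A_30_P01018385 on chromosome 12 was called at day 7 but was detected on 1 control array and the day 10 array alone, so no fold is given. A_30_P01018334 on chromosome 9 was at least 1.91-fold lower (adjusted p = 0.016, limma). Both calls ended without either control replicate.

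Among these 16 members with the highest and lowest day 7 differences, 6 calls held under every alternative run, 7 ended with normexp alone, and 3 ended under further settings. The 6 were A_30_P01026171, A_30_P01027858, A_30_P01023474, A_30_P01018122, A_30_P01032514 and A_30_P01020519.

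**Figure D4:**
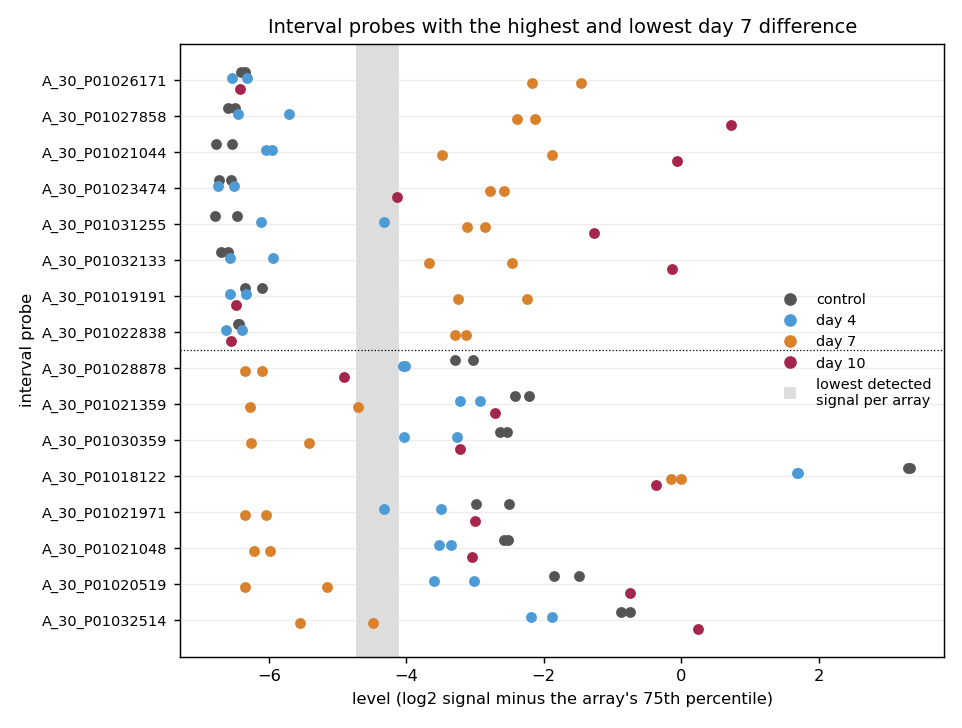
Level on each array (horizontal axis, log2 signal minus the array's 75th percentile) of the 8 interval probes with the highest and the 8 with the lowest day 7 difference, 1 point per mouse. The grey band spans the lowest detected signals of the arrays (-4.72 to -4.13). All 8 upper probes lie left of or inside the band in control, and 7 of the 8 lower probes do so at day 7, the exception being A_30_P01018122.

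The day 7 calls fell in 163 of 1453 tested loci and in 184 of 2608 interval strands with a tested probe. Of these 184, 144 held exactly 1 call, and 90 of the 144 had at least 1 other tested probe, which was not called. At least 2 called probes were held by 40 interval strands and at least 3 by 13. In 9 of the 13 all calls were lower and in 3 all were higher. Besides those above, the lower ones included chr16:90008636-90015586 on the reverse strand, where 3 of 5 probes were called with a median difference over the 5 of -1.54, and chr9:75316023-75344401 on the forward strand, with 3 of 4 called. On chromosome 16 all 5 were called lower at day 10, with a median of -2.66. On chromosome 9 no forward probe was detected at day 7, so that the 3 called decreases are bounded only at 1.06-fold, 1.66-fold and 1.20-fold, and none was called at day 10. The higher ones included chr15:77164450-77201325 on the forward strand, with 3 of 5 called at day 7 and at day 10 (medians of 1.01 and 1.61). These 3 intervals were chosen after their values were seen.

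Neighbouring reverse-strand intervals on chromosome 4 rose at day 7. In chr4:155560050-155570900, A_30_P01019456 lay at -3.05 and -2.76 in control, -2.23 and -2.06 at day 4, -0.64 and -0.95 at day 7, and -0.44 at day 10. It was 4.32-fold higher at day 7 (difference 2.11 ± 0.24, adjusted p = 0.0072, limma), and A_30_P01030529 was 4.67-fold higher (2.22 ± 0.23, adjusted p = 0.0062, lost with normexp). The forward-strand probes of that interval, A_30_P01020052 and A_30_P01021868, were not called. In chr4:155585650-155608700 all 3 tested probes were called, with differences of 1.43 to 2.74, but the day 7 mice were far apart at A_30_P01025000 (1.78 and 0.23) and these calls ended without either control replicate.

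**Figure D5:**
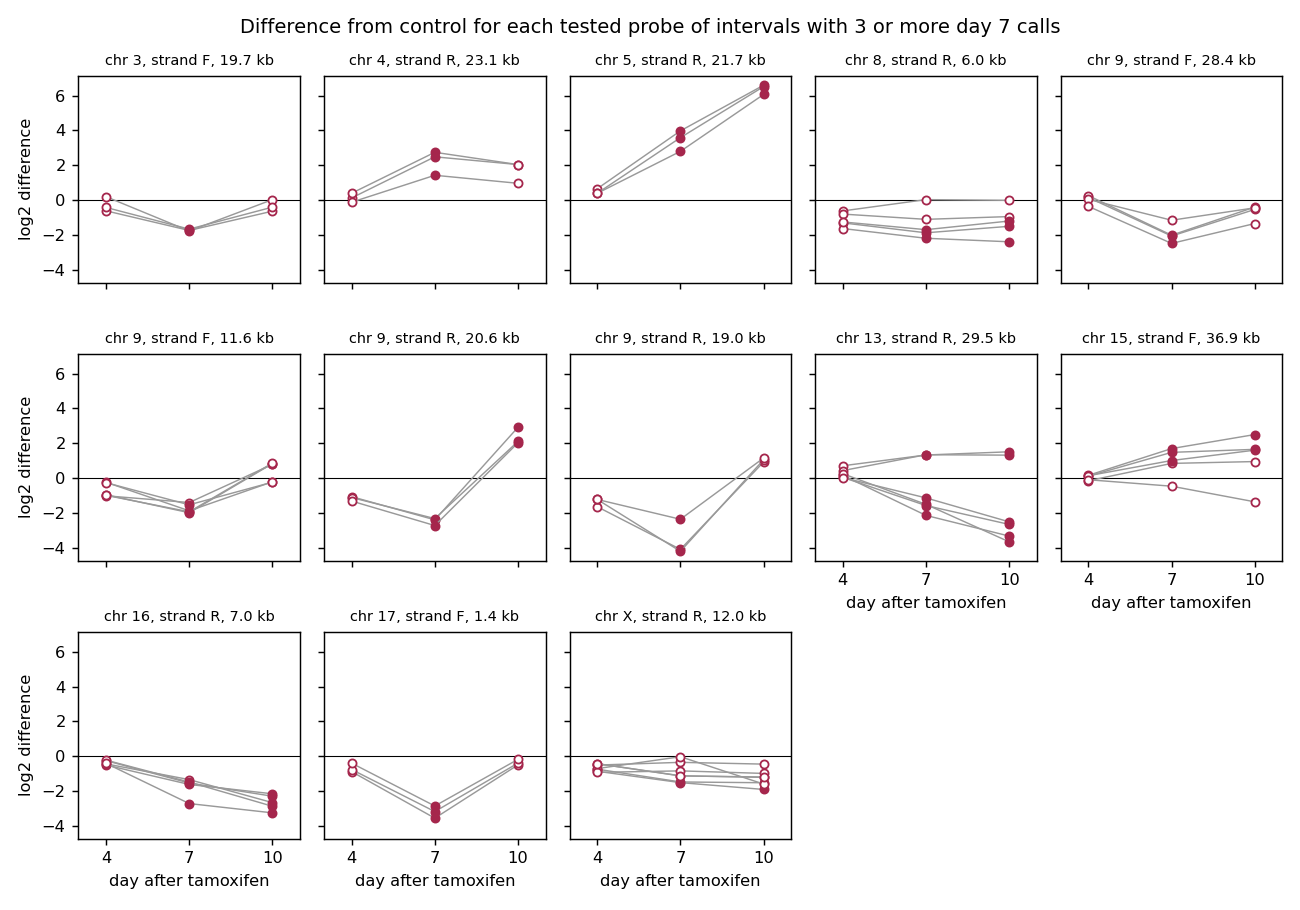
Difference from control (vertical axis, log2) at days 4, 7 and 10 for each tested probe of the 13 interval strands with 3 or more day 7 calls, 1 line per probe. Filled points are called and open points are not. The panels are named by chromosome, strand and interval length. Points of probes not detected on any array of a group are fitted values and not measured sizes. The 20.6 kb interval on chromosome 9, not detected at day 7, is called lower there and lies between 2.03 and 2.92 at day 10, and the interval on chromosome 13 holds probes that move in opposite directions.

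In 1 interval strand the calls went both ways. At chr13:98038568-98068079 on the reverse strand, A_30_P01020403 and A_30_P01022423 were higher at day 7 (differences 1.33 ± 0.22 and 1.35 ± 0.21), and A_30_P01029022, A_30_P01027366 and A_30_P01029572 were lower (-2.14, -1.57 and -1.50), as was A_30_P01032467 by at least 1.29-fold. A_30_P01022423 lay at 1.22 and 1.07 in control, 1.49 and 1.68 at day 4, 2.51 and 2.47 at day 7, and 2.47 at day 10. A_30_P01029022 lay at -2.06 and -1.43 in control, -1.45 and -1.72 at day 4, -4.14 and -3.62 at day 7, and -5.07 at day 10. The bright probes thus rose and the dim probes fell within 29512 bp of 1 strand, and the directions were the same at day 10. Each of these day 7 calls ended when 1 mouse was left out, whereas 5 of the 6 probes kept their day 10 call under every alternative run. The 29512 bp interval can hold more than 1 transcript, and which transcript each probe reports is not given in the sources used here. At a forward-strand interval that overlaps it, chr13:98062189-98066613, A_30_P01029666 was lower at day 7 (-1.22, adjusted p = 0.028, limma). In 2 other loci, chr5:149751979-149808240 and the overlapping intervals at chr9:65647428-65677119, a forward probe was higher and a reverse probe lower. Each forward probe passed the detection filter only through 1 day 7 array and the day 10 array, where it is high.

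Both strands were tested in 464 intervals, 58 of these had a day 7 call, and in 4 both strands were called. At chr5:149751979-149808240 the forward probe A_30_P01025643 rose from not detected in control (-6.67 and -6.53) to -3.83 and -4.17 at day 7 and -3.03 at day 10, while the reverse probe A_30_P01030293 fell from -2.37 and -2.52 to -3.94 and -3.83 and then -6.35. At day 7 the rise of the forward probe was at least 1.52-fold and the fall of the reverse probe at least 2.72-fold (adjusted p = 0.0043 and 0.015, limma). The forward probe was detected in 1 of 2 day 7 mice and its call ended with normexp, and that of the reverse probe ended with normexp, without either control replicate and without day 7 replicate 1. The other 4 forward probes and 2 reverse probes of the interval were not called at day 7. At chr9:78107225-78118850 both strands were lower, with 4 of 5 forward probes called (differences of -1.53 and -1.87 for the 2 detected at day 7, and at least 2.65-fold and 2.67-fold for the others) and 2 of 5 reverse probes (-1.39 and -1.34). At chr16:32309935-32328234 both strands were lower too, with A_30_P01032596, not detected at day 7, at least 1.99-fold lower and the bright reverse probe A_30_P01020720 at -1.24 ± 0.23. At chrX:100745320-100819322 both strands were higher, with A_30_P01029860 at 1.64 ± 0.28 and the 2 tested reverse probes at 2.10 and at least 3.26-fold higher. Each call of these last 3 intervals ended without control replicate 1.

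In 54 of the 58 intervals the calls lay on 1 strand. At chr1:95871175-95886625, where reverse probe A_30_P01019191 appeared at day 7, all 5 forward probes had differences from -1.69 to -0.52 without a call. Of the 3 tested reverse probes of that interval only 1 was called, and their lowest and median differences were -0.05 and 0.28. At chr1:158979050-159007700 the forward probe A_30_P01021237 stayed between -0.80 and -0.11 on the 7 arrays. At chr10:5950116-5958250 the forward probe A_30_P01027456 fell from -3.50 and -3.97 in control to -6.23 and -6.29 at day 7 and -6.72 at day 10 (at least 1.32-fold lower at day 7, adjusted p = 0.0050, limma, lost with normexp), and the 6 tested reverse probes were not called. The other tested forward probe of that interval, with a difference of -0.29, was not called either. At chrX:47893703-47996700 the forward probe A_30_P01028260 was detected in the day 7 mice alone, at -3.01 and -2.49 (at least 3.62-fold above control, adjusted p = 0.0048, limma, lost with normexp), and 4 reverse probes and 1 other forward probe were not called. A_30_P01028260 passed the detection filter only through those day 7 arrays. A p that misses the threshold does not show that the other strand was unchanged.

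Between day 4 and day 7, 36 members were higher (0.665%) and 33 lower (0.61%) at day 7, against 1.24% and 1.43% of all features and 1.64% and 1.97% of features with a symbol. In either direction that is 69 members (1.28%) against 2.67% of all features. The share of higher calls was 52.2%, and it was 37.9% with median scaling and 69.6% with normexp. The number of calls was 3 without day 4 replicate 1, 0 without day 4 replicate 2 (limma, with 519 at an unadjusted p under 0.05), 36 without either control replicate and 160 without day 7 replicate 2.

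At day 10 many more members were called, 478 higher (8.84%) and 730 lower (13.5%), against 10.4% and 17.6% of all features and 12% and 20.6% of features with a symbol. In either direction that is 1208 members (22.3%) against 28.1% of all features. Unlike at day 7, the members' share was not lower in every range of level: it was 30.1% against 29.9% of features with a symbol between 0 and 2, and 35.3% against 30.8% above 2, while below 0 it was 19.7% to 22.1% against 34.2% to 37.1%. This comparison rests on 1 mouse against 2 control mice. The share of higher calls was 39.6%, and it was 54.7% when arrays were scaled to the probes detected on all of them and 27.4% with median scaling, so that the balance of directions depended on the scaling. These scalings moved the median of all features from -0.15 to 0.08 and to -0.35. The number of calls was 680 without control replicate 1. By strand, 185 forward members were higher and 373 lower, and 293 reverse members were higher and 357 lower. The day 10 array also had the lowest sums of epithelial markers (1433) and T cell markers (6.49, against 35.7 to 52.6 elsewhere) and the highest of myeloid markers (219, against 23.2 to 50.9). Single epithelial markers did not all follow their sum, and some were higher. In bulk samples, fewer cells of a type and less RNA per cell cannot be told apart, and the part of these shifts in the interval calls was not tested.

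The largest fitted decreases at day 10 were in members detected on all of the other 6 arrays. A_30_P01023350 (chr8:80581177-80621652, forward) lay at 2.38 and 1.75 in control, 1.41 and 1.66 at day 4, 0.43 and 1.16 at day 7, and -5.24 at day 10, where it was not detected. The decrease was at least 96.6-fold (adjusted p = 0.000265, limma). A_30_P01019445 (chr18:35967933-35986564, forward) lay at 7.02 and 5.55 in control, 5.24 and 5.52 at day 4, 4.44 and 4.87 at day 7, and -0.44 at day 10, a difference of -6.72 ± 0.60 (adjusted p = 0.00082, limma). In both, the day 7 mice lay below control and the day 10 mouse far below all others. A_30_P01026381 (chr14:33975934-33998694, reverse) and A_30_P01030095 (chr3:117935228-118089771, forward) showed differences of -6.18 ± 0.41 and -5.85 ± 0.46 (adjusted p = 0.00037 and 0.00057, limma). A_30_P01022129 (chr6:122725638-122752828, forward) was not detected at day 10 and was at least 13.5-fold lower (adjusted p = 0.00079, limma). These 5 calls held under every alternative run. The largest fitted increases were those of the chr9:68349343-68411643 and chr5:91480533-91502237 intervals described above.

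Long noncoding RNA genes that have a symbol were measured by other probes of the same arrays. Of 60 such genes on a list chosen with these data known, 34 had a probe and 27 were tested. None was called at day 4, 1 was higher at day 7, and 4 were higher and 1 lower at day 10, with median differences of 0.02, 0.04 and 0.67. The background over all features was 2.96% higher and 4.5% lower at day 7, and 10.4% and 17.6% at day 10, with medians of -0.08, -0.08 and -0.15 at days 4, 7 and 10, so that 1 call of 27 at day 7 is near the background. Ftx, which lies in the X-inactivation centre, had levels of -2.99 and -3.09 in control, -2.68 and -2.45 at day 4, -1.92 and -1.81 at day 7, and -1.54 at day 10. Its groups did not overlap, and it was 2.25-fold higher at day 7 (difference 1.17 ± 0.21, adjusted p = 0.029) and 2.82-fold higher at day 10 (adjusted p = 0.0087, limma). The day 7 call ended when any 1 mouse of the control, day 4 or day 7 groups was left out, and both calls ended with normexp.

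Malat1, a nuclear RNA linked to splicing, lay at 1.46 and 1.33 in control, 1.49 and 1.28 at day 4, 2.70 and 1.95 at day 7, and 4.89 at day 10. It was 11.3-fold higher at day 10 (3.50 ± 0.37, adjusted p = 0.0014, limma), and the day 7 difference of 0.93 was not called (adjusted p = 0.14). Neat1, the RNA scaffold of paraspeckles, stayed between 6.40 and 7.07 on all arrays. Of the snoRNA host genes, Snhg7 (1.65 ± 0.25, adjusted p = 0.0049) and Snhg6 (1.32 ± 0.31, adjusted p = 0.025) were higher at day 10 and Snhg18 was lower (-1.96 ± 0.36, adjusted p = 0.011, limma). The Snhg6 call ended with median scaling and without either control replicate.

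The same probe series also holds 70 probes that carry a name or other label instead of an interval with a strand, and 29 of these were tested. The 3 probes named NEAT2, another name of Malat1, were higher at day 10 by 3.26 ± 0.35, 2.99 ± 0.30 and 3.05 ± 0.37 (adjusted p = 0.0016, 0.0013 and 0.0024, limma). The other 2 of the 5 day 10 calls were in probes labelled by an interval without a strand. A_30_P01026503 on chromosome 3 lay between -3.78 and -2.13 on 6 arrays and at -6.62, not detected, at day 10 (at least 2.60-fold lower, adjusted p = 0.0019, limma). A_30_P01025039 on chromosome 17 was higher by 1.03 (adjusted p = 0.0496, limma), a call that ended without either control or either day 4 replicate. The 5 probes named NEAT1 ran between 5.67 and 7.47. Of the 2 tested probes named H19, an imprinted RNA that is abundant before birth, A_30_P01021588 lay at -6.70 and -6.63 in control, -4.02 and -4.09 at day 4, -3.83 and -3.45 at day 7, and -6.53 at day 10. It was detected in both day 4 mice, in 1 day 7 mouse and in no other, and was at least 1.95-fold above control at day 7 (adjusted p = 0.0029, limma, lost with normexp). This probe thus passed the detection filter only through arrays where it is high. The other, A_30_P01025068, lay at -5.76 and -4.35 in control, -3.61 and -3.56 at day 4, -3.93 and -3.63 at day 7, and -4.83 at day 10, and was not called at day 4 or day 7 (adjusted p = 0.62 and 0.17, limma).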

How the data were processed

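RNA of 7 samples was hybridised to 1-colour Agilent arrays of design 028005. The deposited intensity values came from Feature Extraction 11.5.1.1, per the file headers, with gProcessedSignal background-subtracted and detrended and with no scaling between arrays. Flags for background and outliers (other values of 0 or 1) are in the same deposited files. For all single-spot probes the deposited value table lay within 0.1% of gProcessedSignal, and it served as an alternative.

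Neither control spots nor outlier spots (115 to 274 per array) entered the fit. Log2 values were averaged over the spots of a probe after subtraction of the array's 75th percentile. Features were probes well above background on at least 2 arrays, with the brightest probe per gene symbol and each other probe on its own. limma 3.58.1 in R 4.3.3 fitted the 7 arrays together with a mean for each group, with 3 residual and 3.16 prior degrees of freedom, and was tested on simulated data. For a probe that passed the flag on no array of 1 group, a lower bound of the fold is given: the dim group is set to the dimmest signal that passed the flag on each of its arrays, or to the probe's own signal where that is brighter. No spot was saturated on any array, and with so few arrays the precision of every value is limited.

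Members, lists and the rule for named probes were chosen with earlier results of these data known. Named were the 8 highest and 8 lowest members at day 7 and 5 and 5 in the other comparisons, among called members whose groups do not overlap and that are well above background on all arrays of 1 group. The 6 brightest members, up to 6 intervals detected on both strands with a day 7 call and up to 8 with at least 2 called probes were also named. At day 4, where none was called, the largest differences were named as not called. The nearest gene was not analysed here, since no annotation of build mm9 was used.

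Alternatives were normexp on the median spot signal (offset 50), quantile normalization, median scaling, the 75th percentile of probes detected on all arrays, the deposited table, other filters, outlier spots kept, only the 2 groups compared, the replicate block and leaving out each array. Leaving out the day 10 array and, for detection, the outlier spots were added after seeing the data. A group left with 1 array was assumed to vary like the others.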

Additional observations from a re-analysis of the deposited data

Results flagged for a closer look

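The day 7 minus day 4 difference was itself called (limma, adjusted p under 0.05) for 14 of the 16 members named at day 7. These members were chosen for extreme day 7 values, and this comparison uses the same day 7 arrays. A high count is therefore built in by the choice and is no separate support. Over all members 1.28% were called in this comparison, and over all features 2.67%. Among the members that rose, the fitted differences were 4.62 for A_30_P01026171, 3.94 for A_30_P01023474, 3.81 for A_30_P01027858, 3.70 for A_30_P01019191, 3.32 for A_30_P01021044, 3.30 for A_30_P01022838 and 3.19 for A_30_P01032133. Both day 7 mice lay above both day 4 mice at each of these 7 probes. None was detected at day 4, so these values are not measured sizes and have no order. In the same sequence the increases were at least 6.68-fold, 3.65-fold, 4.88-fold, 3.49-fold, 3.64-fold, 2.54-fold and 2.80-fold.

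Among the members that fell, the fitted differences were -2.98 for A_30_P01032514, -2.67 for A_30_P01021048, -2.45 for A_30_P01020519, -2.28 for A_30_P01021971, -2.19 for A_30_P01030359, -2.19 for A_30_P01028878 and -1.77 for A_30_P01018122. Both day 7 mice lay below both day 4 mice at each of these 7 probes, and 6 of them were not detected at day 7, A_30_P01018122 being the exception (3.41-fold lower). For the other 6, in the same sequence, the decreases were at least 4.28-fold, 1.61-fold, 1.76-fold, 1.16-fold, 1.39-fold and 1.07-fold. Without day 4 replicate 2 none of the 14 calls held, and without day 4 replicate 1 those of A_30_P01027858 and A_30_P01023474 held.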

How the results depend on the processing

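Day 7 calls (241) numbered 90 with normexp, 117 with no filter on dim probes, 125 with only the 2 groups compared, and 58 to 300 when 1 array was left out. Calls for day 7 minus day 4 (69) numbered 23, 13 and 36 under the same settings and 0 to 160 when 1 array was left out. At day 4 the count of 0 became 1 with normexp, with median scaling and with members detected on all 7 arrays, and was 0 to 1 when 1 array was left out. Day 10 calls (1208) numbered 680 to 1328 when 1 array was left out. The median difference of members moved at day 10 from -0.11 to -0.33 with normexp, -0.31 with median scaling and 0.11 with the 75th percentile of probes detected on all arrays, and with no filter on dim probes to 0.17 at day 7 and 0.36 for day 7 minus day 4. Detected members numbered 3384 on all 7 arrays and 10624 with the scanner's weaker flag, positive and significant, in place of well above background, and intervals detected on both strands 285 and 927.

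Deviations of same-numbered arrays correlated weakly, at 0.0083, 0.086 and 0.25, which cannot settle whether the replicate numbers pair the mice. With the replicate number as a block, day 7 calls numbered 245 and day 10 calls 1102. Of 181 named calls, 62 held under every alternative run, 86 ended with normexp and 75 without control replicate 1. The uncalled day 7 differences of 2 bright members changed sign: A_30_P01031754 (0.19) to -0.025 with normexp, with a range of -0.045 to 0.43 when 1 array was left out, and A_30_P01027687 (-0.08) to 0.20 with quantile normalization, with a range of -0.39 to 0.23. The called day 10 difference of A_30_P01023474 (2.50) became -0.086 with normexp. The cause was not tested. A part of the members lie close to background: 1094 of the 5410 tested had a mean level below -4, and 846 of 5420 were detected on no day 7 array.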

Other observations

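Chromosome 9 held a larger share of the day 7 calls than any other chromosome. Of its 196 tested members 30 (15.3%) were called, against 1.51% (chromosome 18) to 6.57% (chromosome 15) on the others, and 4 of the 13 interval strands with 3 or more calls lay there. Over all chromosomes 4.45% of members and 7.46% of all features were called. Many of the 30 calls share a locus: chr9:78104935-78118850 held 7, and several other loci held 3 each. Probes of 1 interval are not independent. The counts by chromosome were made after the values were seen and were not tested.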
